A study of Mus musculus with 48 samples.

Results

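Interferon-stimulated genes are the genes a cell turns on when it receives an interferon, a cytokine released in response to viruses and other microbes. The 40 genes described here were chosen by name as members of that class in the mouse. All 40 were found by symbol among the 54532 genes of the table of estimated counts. The filter on low counts kept 21986 genes, and all 40 were among them, with no member under 4 estimated counts in any sample.

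The samples were pieces of whole-thickness small intestine, 2 cm long, from C57Bl/6J mice of both sexes for which the labels name no genetic change and no treatment. Duodenum was taken directly below the stomach outlet and ileum directly above the junction with the caecum, on postnatal days 0, 2, 4, 6 and 8 and in weeks 2, 3 and 4. Each of the 16 groups had 3 numbered samples, 48 in all. A litter usually supplied 2 or 3 of the ages, and which samples share a litter or an animal is not given, so p-values rest on the spread between these samples. At days 2 and 4 and weeks 2 and 3 the samples of a group differed in the sex genes Xist and Ddx3y. Those groups therefore held more than 1 animal. In groups where the samples were alike in these genes, such as week 4, the spread may be technical. Pups were kept with their dam up to day 21 and were then fed chow, so week 4 was the age sampled after weaning. The labels call the housing germ-free, and whether the animals carried microbes could not be settled from them.

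Regional markers were checked first. Pdx1 encodes a regulator of duodenal identity, and at day 6 its level in the duodenum was 11.8, 11.4 and 0.130 counts per 1000000 (CPM) in samples 1, 2 and 3. In the ileum it was 0.105, 0.480 and 14.1 CPM, so that each sample numbered 3 went against its regional label. Those 2 samples were left out, which left 46 samples and n = 2 in each day 6 group. At week 4 the summed level of 3 ileal markers (Fabp6, Fgf15, Slc5a8) was 1.28 to 75.7 CPM in the duodenum and 402 to 2291 CPM in the ileum. The sum of 3 duodenal markers (Pdx1, Reg1, Cyp4a10) was 284 to 1116 CPM and 24.7 to 75.8 CPM respectively. At day 0 the duodenal sum overlapped between regions, at 5.63 to 90.8 CPM in the duodenum and 0.259 to 53.03 CPM in the ileum. Library totals ran from 16824021 to 65042327 estimated counts, and samples of a group differed from each other by more than sampling noise.

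Type I and type III interferons signal through receptors that activate JAK kinases, which phosphorylate STAT2 and other STAT proteins. STAT2 joins IRF9 in a complex that binds the interferon-stimulated response element (ISRE) in target promoters. Interferon gamma acts on genes that carry the gamma-activated sequence (GAS). In the gut of adult mice, which are older than those sampled here, the epithelium responds chiefly to type III interferon. Cells of the lamina propria there respond chiefly to type I. The products of interferon-stimulated genes detect viral RNA, block viral replication, modify proteins with ISG15, attack the vacuoles of intracellular microbes and cut peptides for antigen presentation.

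The promoters of the members differ in which of these elements were matched by a search of their letters, and 6 with at least 1 match are shown as examples. RefSeq promoters of build GRCm38.p6 were found for 30 of the 40 genes. In the 250 bases before the start, the ISRE core, searched as GAAANNGAAA or on the other strand as TTTCNNTTTC, was present in 14 of the 30 (46.7%), against 936 of 27025 genes in the promoter table (3.46%). The GAS motif, searched as TTCNNNGAA, which reads the same on both strands, was present in 7 of the 30 (23.3%), against 2197 of 27025 (8.13%). Both occurred in 4 members, Oas1a, Bst2, Gbp7 and Igtp, and their matches may overlap. Neither occurred in 13 members, among them Irf7, Irf9, Ddx58, Ifih1, Cmpk2 and Tap1. A match is a description of these letters and not evidence of binding. The search took exact letters in 250 bases, so a missing match does not show that an element is absent.

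The windows shown are the last 150 bases before the RefSeq start, 5′ to 3′ on the strand of the gene, with motif matches in capitals. Isg15 (chr4:156200819-156200968, minus strand) has overlapping ISRE cores, and Ifit1 (chr19:34640739-34640888, plus strand) has a pair of separate ones. Oas3 (chr5:120777660-120777809, minus strand) has a single ISRE core. Bst2 (chr8:71537473-71537622, minus strand) and Igtp (chr11:58199406-58199555, plus strand) have a GAS motif beside or overlapping ISRE cores. Irf1 (chr11:53769864-53770013, plus strand) has a GAS motif and no ISRE core.
Isg15: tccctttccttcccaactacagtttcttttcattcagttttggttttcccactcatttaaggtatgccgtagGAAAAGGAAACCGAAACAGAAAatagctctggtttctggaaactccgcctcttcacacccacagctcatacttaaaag
Ifit1: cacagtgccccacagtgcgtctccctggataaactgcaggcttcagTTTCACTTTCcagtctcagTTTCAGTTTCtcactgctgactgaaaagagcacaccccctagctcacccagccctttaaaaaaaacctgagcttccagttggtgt
Oas3: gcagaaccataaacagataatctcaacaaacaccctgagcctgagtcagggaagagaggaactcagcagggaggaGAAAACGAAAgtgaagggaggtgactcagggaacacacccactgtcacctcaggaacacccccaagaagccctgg
Bst2: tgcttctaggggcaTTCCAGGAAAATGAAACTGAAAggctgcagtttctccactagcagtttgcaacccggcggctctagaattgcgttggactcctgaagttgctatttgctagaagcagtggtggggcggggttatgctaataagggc
Igtp: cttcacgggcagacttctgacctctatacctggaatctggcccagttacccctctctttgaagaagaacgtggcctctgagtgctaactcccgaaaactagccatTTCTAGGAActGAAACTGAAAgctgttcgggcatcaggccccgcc
Irf1: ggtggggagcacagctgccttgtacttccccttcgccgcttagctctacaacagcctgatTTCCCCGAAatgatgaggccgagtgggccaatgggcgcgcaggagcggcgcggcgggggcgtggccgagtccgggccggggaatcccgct

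Most of the 40 genes fell at week 3 and rose at week 4 in both regions. Over the first 8 days 28 of them fell in the duodenum, where 19.2% of all genes fell, and 6 in the ileum, where 10.7% did, and whether that change differs between regions was not tested. In the duodenum the mean log2 CPM of the 40 genes was 4.66 ± 0.12 (SD, n = 3) at day 0, 3.33 ± 0.22 (n = 2) at day 6 and 4.53 ± 0.34 at week 2. It was 3.15 ± 0.06 at week 3 and 6.07 ± 0.12 at week 4. The week 4 duodenum samples lay above every other sample of the study. Sample 1 of day 4 stood apart from the other duodenum samples of its age, at 3.97 against 3.13 and 3.23, and sample 1 of week 2 was the highest of its group in each region. In the ileum the same mean stayed between 3.82 and 4.26 from day 0 to week 2, then was 2.89 ± 0.20 at week 3 and 4.95 ± 0.26 at week 4. Whole tissue was sequenced, so fewer cells of a type and less RNA per cell cannot be told apart. Markers of smooth muscle (Myh11, Acta2, Actg2, Des) were low and uneven between pieces. Their sum was 3.41 to 5.57 CPM in the duodenum at day 8 and 25.2 to 156 CPM in the ileum at week 4. How much muscle each piece held was not tested.

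**Figure D1:**
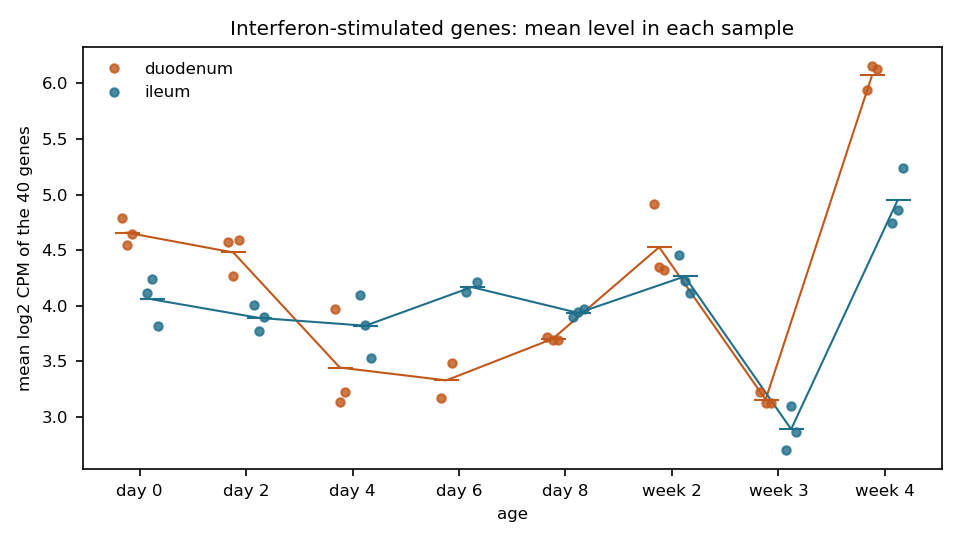
Mean log2 CPM of the 40 interferon-stimulated genes (y axis) in each sample at each age (x axis), with points for samples, lines and dashes for group means, orange for duodenum and blue for ileum. Both regions are lowest at week 3, with means of 3.15 and 2.89, and highest at week 4, with means of 6.07 and 4.95.

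All 40 members changed with age in duodenum and ileum. By edgeR's quasi-likelihood test over the 8 ages, with p-values adjusted by the Benjamini-Hochberg method over all genes and a gene called under an adjusted p of 0.05, all 40 were called in the duodenum, where 67.4% of all genes were called. All 40 were also called in the ileum, where 58.7% of all genes were. The group mean was highest at week 4 for 35 members in the duodenum, against 19.7% of all genes, and for 25 in the ileum, against 25.9%. It was lowest at week 3 for 20 members in the duodenum (9.98% of all genes) and 33 in the ileum (13.9%). A further 13 duodenal members were lowest at day 6 (16.1%), among them Irf9, Usp18, Oas2, Oas3, Oasl1, Oasl2 and Stat2.

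**Figure D2:**
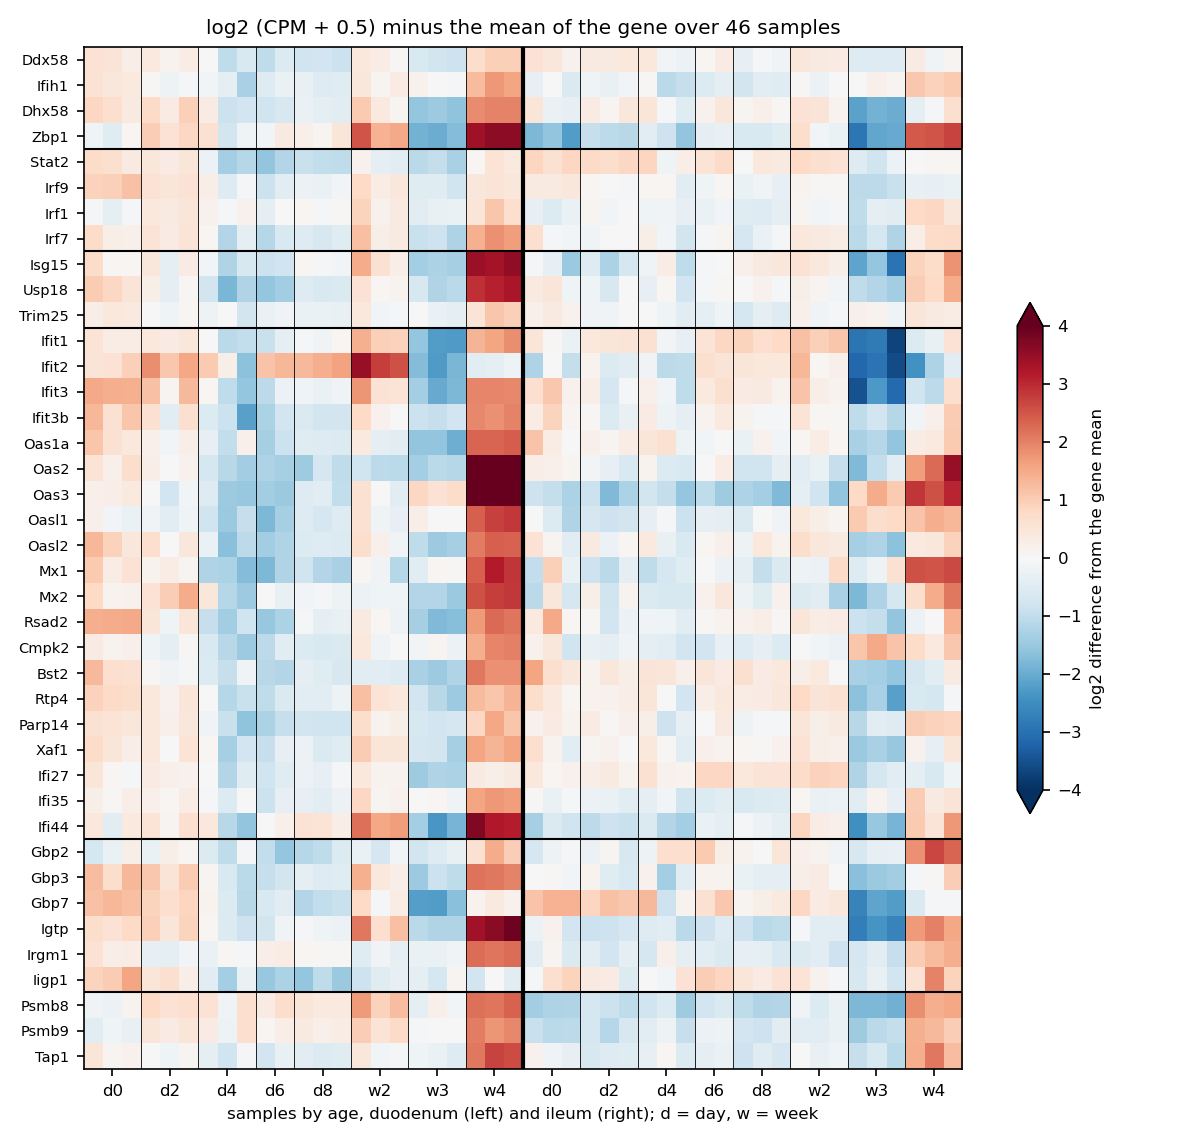
Each line of the map is 1 of the 40 genes, ordered by role from sensors at the top to antigen processing at the bottom, and each column 1 of 46 samples, duodenum to the left and ileum to the right. Colour is log2(CPM + 0.5) minus the gene's mean over the samples, capped at 4 in either direction. The week 3 columns are blue for most genes and the week 4 columns red, more so in the duodenum.

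Between day 0 and day 8, a comparison chosen after seeing the data, 28 members fell in the duodenum (19.2% of all genes did) and 2 rose (22%), Psmb8 and Psmb9. The median log2 change was -0.99, against -0.06 over all genes. In the ileum 6 members fell (10.7% of all genes) and 1, Zbp1, rose (8.56%), with a median of -0.30 against 0.01. Between day 8 and week 2, also chosen after seeing the data, 27 members rose in the duodenum (6.75%) and none fell (8.93%). In the ileum 3 rose (4.17%), Trim25, Psmb8 and Ddx58, and none fell (2.47%). The duodenal count of 27 was 6 without sample 1 of week 2 and 16 without sample 2 or sample 3 of day 8. The ileal count of 3 was 0 or 1 without sample 1, 2 or 3 of week 2 or sample 1 or 3 of day 8, and the ileal count of 7 members called between day 0 and day 8 was 11 without sample 3 of day 0 and 3 without sample 1 of day 8. With all 48 samples the counts from day 8 to week 2 were 17 in the duodenum and 0 in the ileum. In models of the compared groups alone the ileal counts were 11 from day 0 to day 8 and 11 from day 8 to week 2, and without the day 4 samples they were 13 and 7.

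In the duodenum, markers of macrophages and endothelium moved with the members over these ages. The summed level of 5 macrophage markers in the duodenum was 99.8 to 127 CPM at day 0, 60.7 to 64.2 CPM at day 8 and 95.4 to 141 CPM at week 2, with 5 of 5 called lower at the first step and 4 of 5 higher at the next. The sum of 4 endothelial markers was 91.2 to 176 CPM, 7.097 to 11.9 CPM and 17.95 to 26.6 CPM at those ages, with 4 of 4 called lower and then 3 of 4 higher. Of 4 neutrophil markers 3 fell in the duodenum from day 0 to day 8. Over all genes 19.2% fell in the duodenum at that step, and 6.75% rose from day 8 to week 2. In the ileum no macrophage marker was called at either step, with sums of 80.96 to 106 CPM, 100.1 to 130.3 CPM and 121 to 152 CPM, and 3 of 4 endothelial markers fell from day 0 to day 8 (10.7% of all genes). No macrophage or endothelial marker was at 0 in these groups, and their part in the course of the members was not tested.

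By edgeR, week 2 stood above day 0 for 8 duodenal members (12.1%) and below it for 10 (11.3%). In the ileum 8 were above day 0 (6.43%) and 1, Bst2, below (5.92%). Zbp1, Ifi44, Ifit1, Ifit2, Psmb8 and Psmb9 were higher at week 2 than at day 0 in both regions. The ileal total of 9 was 5 without sample 2 of day 0 and 4 without sample 3 of day 0 or sample 1 of week 2, and 4 with all 48 samples. Without sample 1 of week 2, Ifi44, Ifit1 and Ifit2 were no longer called in the ileum. Bst2 was not called there without sample 1 of day 0, with a log2 change of -0.35 (adjusted p = 0.435). Nor was it called without sample 1 or 3 of week 2, with all 48 samples or in a model of the compared groups alone. Ifit1 in the duodenum was not called without any 1 of the 6 samples compared (adjusted p from 0.0514 to 0.202).

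From week 2 to week 3 most members fell in both regions. In the duodenum 28 of 40 fell, where 10.6% of all genes fell, and none rose, where 7.7% did. In the ileum 28 fell (13.9% of all genes) and 2 rose (12.9%), Cmpk2 and Oas3. The median log2 change was -1.37 in the duodenum and -1.36 in the ileum, against 0.03 over all genes in each. The fallers were 27 in common, with Mx2 called in the duodenum alone and Tap1 in the ileum alone, and whether those 2 changes differ between regions was not tested.

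From week 3 to week 4 nearly all members rose. In the duodenum 39 of 40 rose, where 7.75% of all genes rose, and none fell, where 4.96% did. The median log2 change was 2.62, against -0.04 over all genes. In the ileum 35 rose (8.26% of all genes) and none fell (7.81%), with a median of 2.00 against 0. Every week 4 sample lay above every week 3 sample for 39 members in the duodenum (17.1% of all genes) and 38 in the ileum (12.7%). The exception in the duodenum was Iigp1, and the ileal members not called were Trim25, Stat2, Oasl1, Cmpk2 and Ifi27. Both steps share the week 3 samples, so a low week 3 sample enters each of them.

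**Figure D3:**
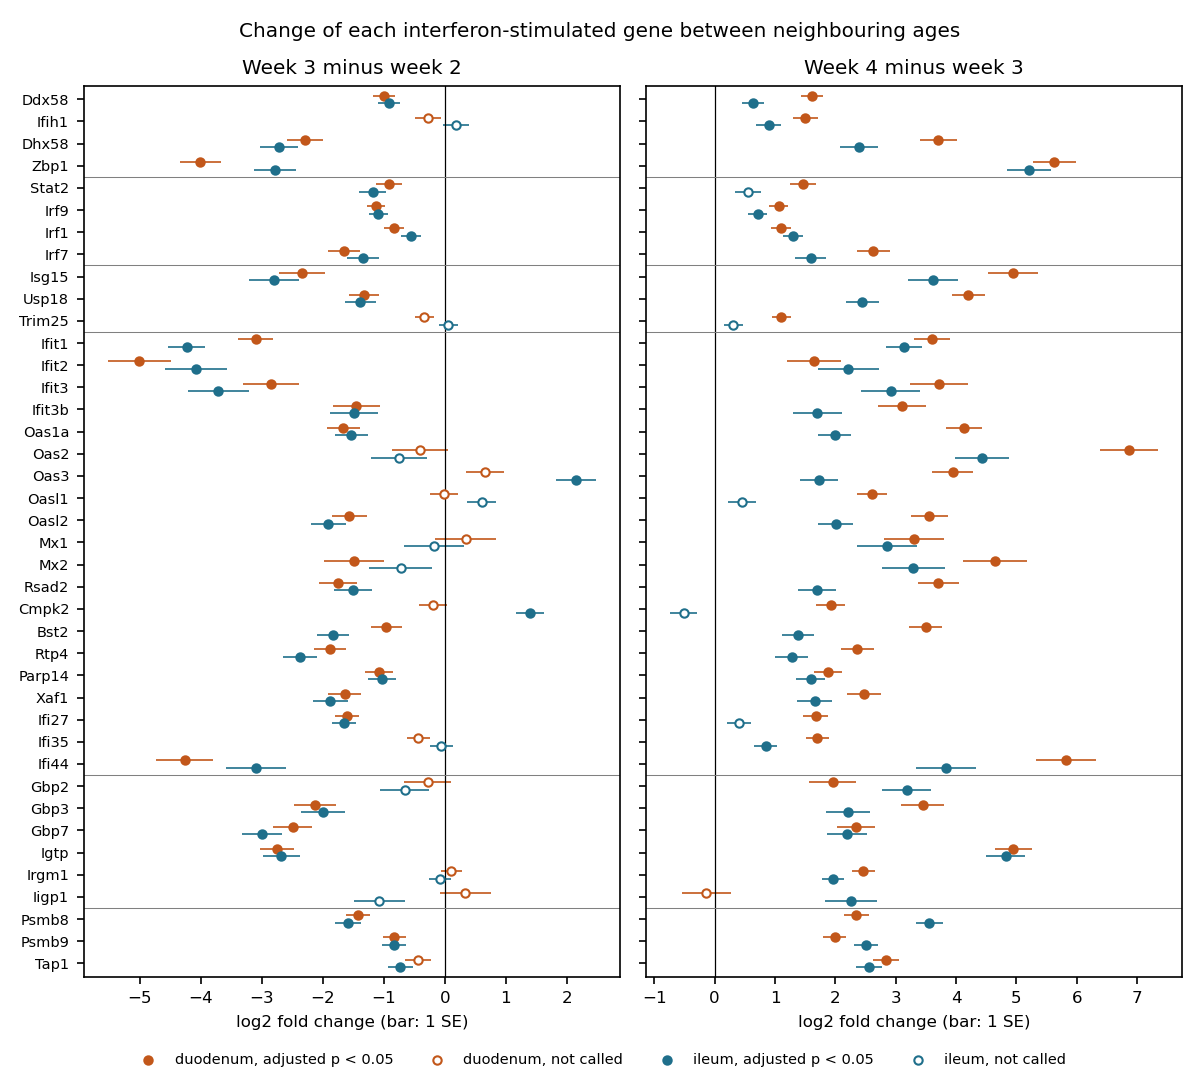
Log2 fold change of each of the 40 genes (y axis, by role) from week 2 to week 3 on the left and from week 3 to week 4 on the right, with bars of 1 SE. Filled points have an adjusted p under 0.05, open points do not, and orange is duodenum and blue ileum. Points of the first step lie mostly below 0 and those of the second above 0, with medians of -1.37 and 2.62 in the duodenum.

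Measured against birth, week 4 was a rise for most members and not for all. In the duodenum 30 members were higher at week 4 than at day 0 (20.4% of all genes), with a median log2 change of 1.28 over the 40, and 3 were lower (20.1%), Irf9, Gbp7 and Iigp1. In the ileum 20 were higher (21.5%), with a median of 0.73, and 6 were lower (20.4%), Irf9, Stat2, Gbp7, Rtp4, Bst2 and Ifi27. All 20 ileal risers were among the 30 of the duodenum.

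The sensors detect viral nucleic acid inside the cell. Zbp1, which binds Z-form nucleic acid and starts inflammatory cell death, was called at both steps in both regions. In the duodenum it stood at 61.7, 28.1 and 30.8 CPM in the 3 samples of week 2, at 2.42, 2.27 and 2.799 CPM at week 3 and then 113, 129 and 129 CPM at week 4. In the ileum the values were 17.3, 9.52 and 8.53 CPM, 0.9598, 2.08 and 2.17 CPM and 58.6, 61.9 and 70.1 CPM. The 3 ages did not overlap in either region, and the log2 change from week 3 to week 4 was 5.63 ± 0.36 (SE; adjusted p = 4.19e-14) in the duodenum and 5.21 ± 0.37 (SE; adjusted p = 5.85e-13) in the ileum. Over days 0 to 8, duodenal samples lay at 6.08 to 20.8 CPM and ileal samples at 1.81 to 8.32 CPM.

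Dhx58, which encodes the helicase LGP2, had 20.1, 12.4 and 10.2 CPM at week 2, 2.88, 3.14 and 2.72 CPM at week 3 and then 36.03, 38.9 and 38.8 CPM at week 4 in the duodenum. Ileal values were 14.4, 13.7 and 10.3 CPM, 1.72, 2.17 and 1.98 CPM and 7.28, 8.84 and 14.8 CPM. Duodenal week 4 samples lay above those of week 2, and ileal ones overlapped them. The other sensors were Ddx58, which encodes RIG-I, and Ifih1, which encodes MDA5. Ddx58 fell from week 2 to week 3, with log2 changes of -1.002 ± 0.18 (SE) in the duodenum and -0.91 ± 0.18 in the ileum. Ifih1 changed by -0.27 ± 0.21 and 0.18 ± 0.21, which did not pass the test. All 4 sensors rose from week 3 to week 4 in both regions.

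The 4 transcription factor genes fell from week 2 to week 3 in both regions, and all but Stat2 in the ileum rose to week 4. Irf7, which drives transcription of type I interferon genes, had 176, 90.1 and 97.5 CPM at week 2, 40.9, 42.4 and 31.9 CPM at week 3 and then 203, 270.1 and 241 CPM at week 4 in the duodenum. Ileal values were 103, 96.8 and 92.7 CPM, 35.4, 46.6 and 33.04 CPM and 91.4, 126 and 129 CPM. The duodenal rise from week 3 was 2.63 ± 0.27 (SE; adjusted p = 2.82e-09) on the log2 scale and the ileal rise 1.59 ± 0.26 (SE; adjusted p = 2.04e-05). In the ileum the lowest week 4 sample lay under all week 2 samples.

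Irf9, the DNA-binding partner of STAT2, was highest at birth. The duodenum had 92.01, 93.1 and 108 CPM at day 0, 34.004, 34.2 and 27.5 CPM at week 3 and then 66.04, 68.5 and 65.3 CPM at week 4. The ileum had 62.1, 62.1 and 66.4 CPM, 22.96, 22.8 and 25.4 CPM and 38.6, 38.01 and 40.02 CPM. Week 4 stood below day 0 in every sample, with log2 changes of -0.55 ± 0.15 (SE; adjusted p = 0.00329) in the duodenum and -0.71 ± 0.15 (SE; adjusted p = 2.51e-04) in the ileum.

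Stat2, which encodes that partner, had 134, 124 and 102 CPM at day 0, 26.5 and 34.9 CPM at day 6 and then 83.6, 117 and 105 CPM at week 4 in the duodenum. The ileum had 146, 122 and 142 CPM, 116 and 135 CPM and 78.9, 83.4 and 84.2 CPM at those ages. The duodenal day 6 samples thus lay far below those of day 0, where ileal samples of the same ages overlapped, and at day 6 the ileum was higher by 2.03 ± 0.27 (SE; adjusted p = 1.15e-06) on the log2 scale. Irf1, which is induced by interferon gamma through the GAS motif printed above, rose from week 3 to week 4 by 1.10 ± 0.16 (SE) in the duodenum and 1.29 ± 0.17 in the ileum. Its regional difference at week 4 was -0.07 ± 0.16 (SE; adjusted p = 0.776), which did not pass the test.

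ISG15 is a small ubiquitin-like protein that is secreted and also joined to other proteins, and USP18 removes it and restrains the type I receptor. Isg15 had 28.3, 15.2 and 11.9 CPM at week 2, 3.57, 3.77 and 3.62 CPM at week 3 and then 113, 103 and 121 CPM at week 4 in the duodenum. The ileal samples had 14.998, 13.5 and 11.7 CPM, 1.88, 3.04 and 0.8199 CPM and 18.8, 16.8 and 35.3 CPM, and 1 week 4 sample stood well above the other 2. The log2 rise from week 3 was 4.94 ± 0.42 (SE; adjusted p = 5.27e-11) in the duodenum and 3.62 ± 0.42 (SE; adjusted p = 5.32e-08) in the ileum. Per kilobase of exon, where levels of different genes can be compared, Isg15 was the highest of the 40 in the duodenum at week 4 with 148.5 CPM per kb, followed by Ifit1 with 143.2, and in the ileum Ifit1 led with 46.6 CPM per kb.

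Usp18 had 17.9, 15.5 and 12.3 CPM at day 0, 2.56 and 2.93 CPM at day 6, 5.303, 3.45 and 3.72 CPM at week 3 and then 67.8, 76.9 and 86.7 CPM at week 4 in the duodenum. The ileal values at the same ages were 11.1, 12.2 and 7.51 CPM, 8.12 and 8.77 CPM, 3.96, 3.52 and 2.94 CPM and 17.4, 15.3 and 24.7 CPM. The duodenum was therefore below the ileum at day 6 and above it at week 4, with no overlap at either age. The ileum minus duodenum difference at week 4 was -2.02 ± 0.25 (SE; adjusted p = 3.08e-07) on the log2 scale. Trim25, a ligase for ISG15 and activator of RIG-I, rose from week 3 to week 4 in the duodenum by 1.10 ± 0.16 (SE), and its ileal change of 0.31 ± 0.16 did not pass the test.

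The 20 antiviral effector genes all rose from week 3 to week 4 in the duodenum, with a median log2 change of 3.40, and 17 rose in the ileum, with a median of 1.72. The Oas genes make short oligoadenylates that activate the nuclease RNase L. Oas2 had 2.74, 2.05 and 3.15 CPM at day 0, 0.376, 0.558 and 0.514 CPM at week 3 and then 55.04, 55.5 and 56.3 CPM at week 4 in the duodenum. Ileal samples gave 2.18, 2.05 and 1.9000 CPM, 0.15997, 0.627 and 1.16 CPM and 6.64, 10.3 and 24.5 CPM, and the ileal week 4 samples were spread more widely than the duodenal ones. The duodenal rise from week 3, 6.86 ± 0.47 (SE; adjusted p = 1.52e-13), was the largest log2 change of any member in that comparison.

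Oas3 departed from the common course at week 3. In the duodenum it had 8.499, 5.33 and 3.899 CPM at week 2, 10.01, 8.34 and 9.35 CPM at week 3 and then 115, 161 and 151 CPM at week 4. In the ileum it had 4.02, 2.86 and 1.47 CPM, 9.598, 16.1 and 11.7 CPM and 42.3, 33.9 and 47.7 CPM. In the ileum it rose at each of these steps, by 2.15 ± 0.33 (SE; adjusted p = 2.01e-06) to week 3 and by 1.73 ± 0.31 (SE; adjusted p = 8.13e-05) to week 4. The duodenal change to week 3, 0.65 ± 0.31 (SE; adjusted p = 0.153), did not pass the test.

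Oasl1 and Oasl2 encode related proteins, and Oasl1 is known to limit translation of Irf7. Oasl1 had 36.7, 21.1 and 18.9 CPM at week 2, 28.8, 23.5 and 23.7 CPM at week 3 and then 127, 162 and 173 CPM at week 4 in the duodenum, and the week 3 samples lay within the range of week 2. Ileal values were 32.2, 27.9 and 25.9 CPM, 49.6, 39.5 and 41.5 CPM and 52.8, 65.6 and 60.5 CPM. Its change from week 3 to week 4 was 0.45 ± 0.23 (SE; adjusted p = 0.199) in the ileum. Oasl2 had 143, 102 and 80.2 CPM, 43.2, 31.7 and 35.03 CPM and 375, 466 and 452 CPM in the duodenum and 145, 120.2 and 114 CPM, 35.2, 37.5 and 28.2 CPM and 115, 122 and 169.6 CPM in the ileum, with a fall and a rise in both. The neighbouring Oas and Oasl genes on chromosome 5 resemble each other, so reads may have been divided among them by the authors' estimation.

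Ifit proteins bind foreign RNA ends, and their genes lie together on chromosome 19. Ifit1 had 333, 239.9 and 233 CPM at week 2, 42.4, 25.9 and 25.5 CPM at week 3 and then 320.0, 368 and 453 CPM at week 4 in the duodenum. The ileal samples had 279, 239.7 and 271 CPM, 16.1, 16.9 and 9.02 CPM and 85.5, 100.1 and 186 CPM. Every ileal week 4 sample therefore stayed under every ileal week 2 sample, and the ileal fall to week 3 was -4.23 ± 0.31 (SE; adjusted p = 1.54e-13). Ifit3 and Ifit3b, a near-identical pair whose reads may be divided uncertainly, followed the same fall and rise in both regions.

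Ifit2 was the member least like the rest. In the duodenum it had 43.6, 45.8 and 59.5 CPM at day 0, 344, 208 and 179 CPM at week 2, 8.64, 5.86 and 8.22 CPM at week 3 and then 21.9, 23.7 and 25.9 CPM at week 4. In the ileum the values were 12.6, 30.4 and 15.2 CPM, 76.3, 32.03 and 34.8 CPM, 2.96, 3.43 and 2.07 CPM and 5.24, 12.7 and 21.7 CPM. Duodenal samples thus peaked at week 2 and stayed below day 0 at week 4, a difference of -1.06 ± 0.44 (SE; adjusted p = 0.0523) that did not pass the test. The fall from week 2 to week 3, -5.003 ± 0.51 (SE; adjusted p = 2.87e-09) in the duodenum, was the largest of the 40. The duodenal rise to week 4, 1.65 ± 0.45 (SE; adjusted p = 0.0125), was not called without sample 2 of week 3 (adjusted p = 0.0678). Across the 46 samples the correlation of Ifit2 with the mean of the other members was 0.30, against 0.95 for Oasl2 and Usp18, as a description over samples that share their ages and libraries.

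Bst2 encodes tetherin, which holds budding virus on the cell surface, and it had the smallest p for the interaction of region and age. The duodenum had 16.4, 10.3 and 9.895 CPM at day 0, 2.66 and 2.55 CPM at day 6, 2.31, 1.99 and 2.49 CPM at week 3 and then 29.4, 23.7 and 23.9 CPM at week 4. The ileum had 19.9, 10.3 and 8.88 CPM, 9.12 and 8.06 CPM, 2.32, 2.17 and 1.83 CPM and 3.85, 4.53 and 8.35 CPM. Week 4 was the highest age in the duodenum and lay below every day 0 sample in the ileum, with log2 changes from day 0 of 1.07 ± 0.24 (SE; adjusted p = 4.58e-04) and -1.23 ± 0.25 (SE; adjusted p = 1.15e-04). The difference between those changes was -2.30 ± 0.35 (SE; adjusted p = 6.99e-05).

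Rsad2, which encodes viperin, and Cmpk2, a nucleotide kinase gene, are neighbours on chromosome 12. Rsad2 fell from week 2 to week 3 in both regions, with log2 changes of -1.74 ± 0.31 (SE) and -1.50 ± 0.31. Cmpk2 had 42.3, 28.7 and 31.8 CPM at week 2, 29.1, 34.2 and 26.4 CPM at week 3 and then 87.9, 123 and 129 CPM at week 4 in the duodenum. Ileal samples gave 31.5, 29.2 and 26.8 CPM, 67.9, 91.4 and 70.4 CPM and 53.2, 41.3 and 66.8 CPM. It was the only member whose ileal mean was highest at week 3, and its ileal rise to that age was 1.39 ± 0.23 (SE; adjusted p = 9.19e-06). The remaining effectors, Mx1, Mx2, Rtp4, Parp14, Xaf1, Ifi27, Ifi35, Ifi44 and Oas1a, rose from week 3 to week 4 in both regions, with the exception of Ifi27 in the ileum at 0.40 ± 0.20 (SE; adjusted p = 0.186).

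The GTPases of the Gbp and Irg families attack the vacuoles in which bacteria and parasites live, and interferon gamma is a strong inducer of them. Igtp had 44.8, 16.4 and 23.7 CPM at week 2, 4.46, 4.05 and 4.06 CPM at week 3 and then 108, 127 and 155 CPM at week 4 in the duodenum. In the ileum it had 9.51, 7.17 and 7.23 CPM, 1.04, 1.54 and 1.16 CPM and 33.5, 41.95 and 30.1 CPM. The rise from week 3 was 4.95 ± 0.30 (SE; adjusted p = 9.91e-15) and 4.82 ± 0.32 (SE; adjusted p = 9.18e-14), and ages did not overlap.

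Irgm1, which keeps other Irg proteins off the cell's own membranes, was not called at week 3. Its duodenal values were 15.9, 20.4 and 17.6 CPM at week 2, 19.01, 18.7 and 20.4 CPM at week 3 and then 109.9, 102 and 109 CPM at week 4. Its ileal values were 15.5, 16.8 and 12.7 CPM, 14.2, 16.7 and 11.7 CPM and 46.7, 55.3 and 63.1 CPM. The change to week 3 was 0.11 ± 0.18 (SE) in the duodenum and -0.08 ± 0.18 in the ileum, neither called, and the rise to week 4 was 2.47 ± 0.18 and 1.96 ± 0.18, both called.

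Iigp1 and Gbp2 were the members higher in the ileum at week 4. Iigp1 had 3.85, 4.24 and 6.41 CPM at day 0, 1.29, 0.942 and 2.03 CPM at week 3 and then 0.886, 1.81 and 1.202 CPM at week 4 in the duodenum. Ileal values were 1.74, 3.22 and 3.82 CPM, 0.9998, 1.3996 and 0.868 CPM and 2.97, 8.69 and 3.87 CPM, with 1 week 4 sample above the other 2. The change from week 3 was 2.26 ± 0.43 (SE; adjusted p = 1.58e-04) in the ileum and -0.13 ± 0.41 (SE; adjusted p = 0.873) in the duodenum, where it was not called. Gbp2 had 2.95, 5.86 and 3.996 CPM in the duodenum and 7.63, 14.1 and 10.96 CPM in the ileum at week 4, without overlap, a log2 difference of 1.36 ± 0.37 (SE; adjusted p = 0.00708) whose adjusted p was 0.0543 without duodenum sample 1. Gbp7 had 60.3, 67.5 and 61.7 CPM at day 0 and 5.41, 5.34 and 7.99 CPM at week 3 in the duodenum and stood at 29.7, 35.2 and 30.1 CPM at week 4. Gbp2, Gbp3 and Gbp7 lie together on chromosome 3 and resemble each other, which leaves the division of reads among them uncertain.

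Psmb8 and Psmb9 encode catalytic subunits of the immunoproteasome and Tap1 a subunit of the transporter that carries its peptides, and the 3 genes adjoin on chromosome 17. Psmb8 had 75.5, 43.6 and 54.8 CPM at week 2, 17.7, 26.4 and 20.9 CPM at week 3 and then 107, 103 and 119.8 CPM at week 4 in the duodenum. The ileal samples had 20.8, 15.4 and 18.7 CPM, 6.24, 6.27 and 5.69 CPM and 84.4, 63.1 and 67.1 CPM. Psmb8 was called lower in the ileum at each of the 8 ages, the log2 difference being -1.26 ± 0.20 (SE; adjusted p = 1.28e-04) at day 0 and -1.38 ± 0.07 (SE; adjusted p = 7.02e-18) averaged over the ages, the smallest p of the 40 in that comparison. At week 4 the difference was -0.62 ± 0.20 (SE; adjusted p = 0.0179), which was no longer called without duodenum sample 3 or ileum sample 2 or 3 of that age (adjusted p from 0.0533 to 0.0609).

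Tap1 had 32.8, 21.97 and 22.6 CPM at week 2, 21.2, 19.6 and 16.3 CPM at week 3 and then 104, 156 and 147 CPM at week 4 in the duodenum, and 23.4, 19.1 and 21.1 CPM, 12.2, 15.3 and 11.04 CPM and 65.5, 104 and 56.8 CPM in the ileum. It fell to week 3 in the ileum, with a log2 change of -0.73 ± 0.21 (SE; adjusted p = 0.00775), and rose to week 4 in both regions. Psmb9 rose from week 3 to week 4 by 1.99 ± 0.19 (SE) in the duodenum and 2.51 ± 0.20 in the ileum. Unlike most other members, Psmb8 and Psmb9 had already risen in the duodenum between day 0 and day 8, by 0.50 ± 0.20 and 0.62 ± 0.19 on the log2 scale.

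**Figure D4:**
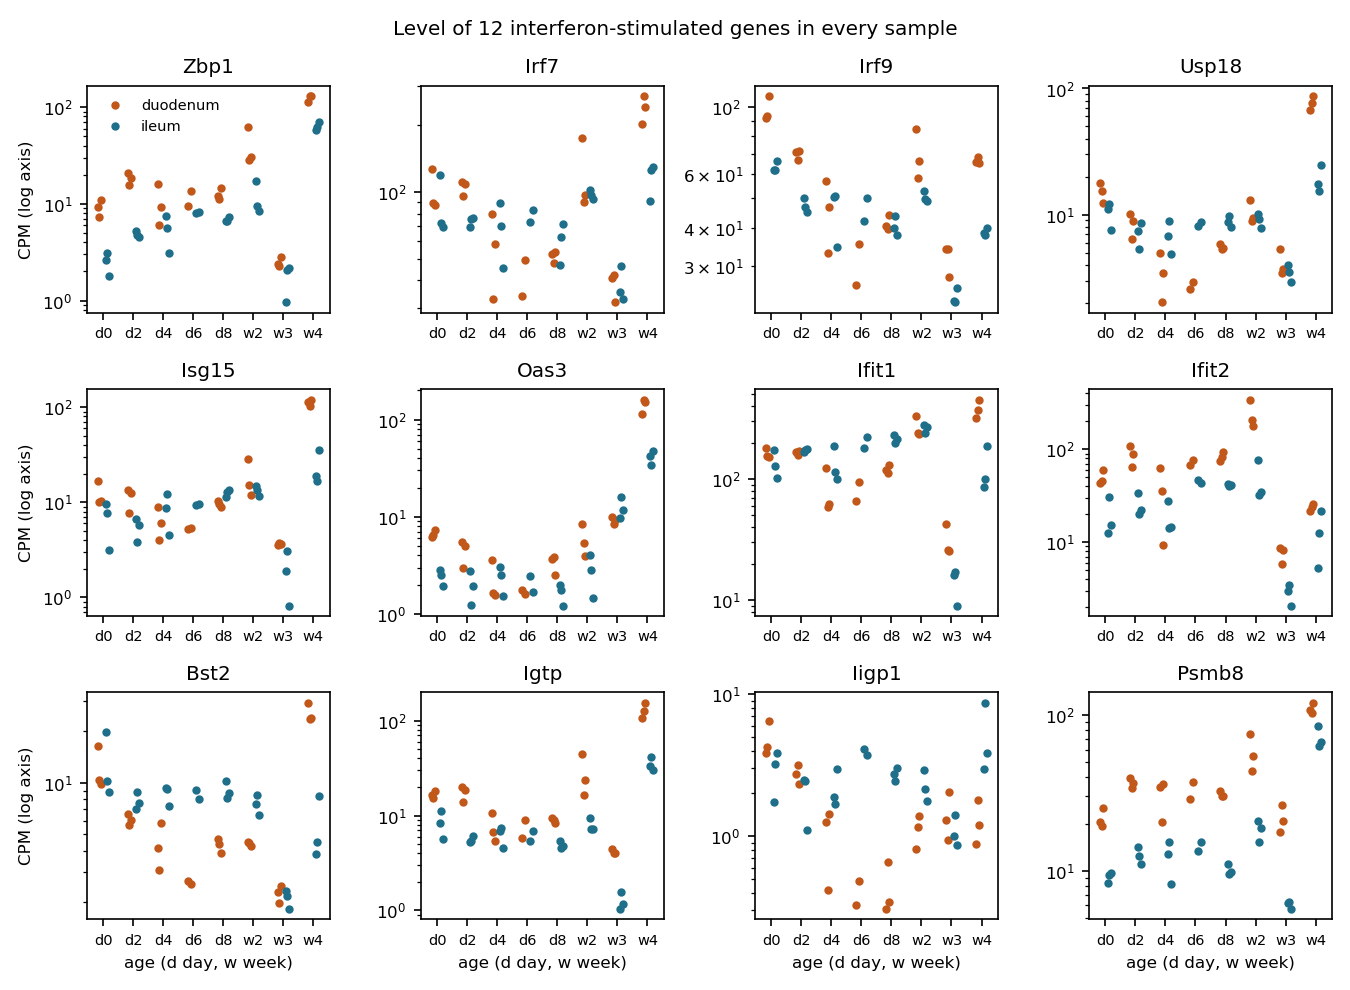
CPM of 12 members on a log axis in each sample by age, orange for duodenum and blue for ileum, 1 point per sample. Most fall at week 3 and are highest at week 4, Ifit2 peaks at week 2, Irf9 is highest at day 0, and Iigp1 is higher in the ileum than in the duodenum at week 4.

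Members called higher in the ileum outnumbered those called lower at days 4, 6 and 8, and the reverse held at the other ages. At day 0 the ileum was lower for 9 members (3.14% of all genes) and higher for none (2.97%), and at day 2 it was lower for 9 (3.97%) and higher for none (4.05%). At day 4 it was higher for 13 (11.6%) and lower for 3 (15%). At day 6, with 2 samples per group, it was higher for 22 (17.8%) and lower for 2 (17.5%), with a median log2 difference of 1.01. At day 8 it was higher for 12 (17.1%) and lower for 7 (22.6%). At week 2 it was higher for 3 (10.6%) and lower for 10 (11.8%), and at week 3 higher for 2 (7.28%), Cmpk2 and Oasl1, and lower for 5 (6.9%). These comparisons at the earlier 7 ages were chosen after seeing the data.

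Several of these counts for members depended on single samples or on the samples in the model. The day 0 total of 9 was 4 without duodenum sample 3 or ileum sample 1 or 3, and the day 2 total of 9 was 5 without duodenum sample 1 or ileum sample 2. The day 4 total of 16 was 7 without duodenum sample 2 and 8 without ileum sample 1. The day 6 total of 24 was 15 without duodenum sample 1, and the week 2 total of 13 was 8 without ileum sample 2. With the 2 samples of day 6 put back under their labels, no member was called at day 6. That fit also gave 5 at day 4, of which 2 were higher in the ileum, and 8 at week 2. In a model of the 2 compared groups alone the totals were 18 at day 2, 0 at day 4 and 29 at day 8, and without the day 4 samples the week 3 total of 7 was 15.

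Cell type markers differed between regions at the ages when more members were higher in the ileum. At day 6 the macrophage sum was 35.2 to 38.2 CPM in the duodenum and 134 to 146 CPM in the ileum, with 4 of 5 markers called higher in the ileum. The endothelial sum was 15.7 to 21.8 CPM and 83.2 to 85.4 CPM, and the sum of 4 smooth muscle markers 5.35 to 9.62 CPM and 42.3 to 136 CPM, with 4 of 4 called higher in each list. The sum of 5 B cell and plasma cell markers was 1.77 to 9.67 CPM and 18.2 to 27.1 CPM, with 4 of 5 called higher. At day 8 all 5 macrophage, 4 endothelial and 4 smooth muscle markers were higher in the ileum, and at day 4 the counts were 1, 2 and 3. Over all genes 17.8% were higher in the ileum at day 6, 17.1% at day 8 and 11.6% at day 4. Their part in the regional difference of the members was not tested.

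At week 4 the ileum was lower for 31 members (13.9% of all genes) and higher for 2 (14.5%), Gbp2 and Iigp1, with a median log2 difference of -1.06 against 0.08 over all genes. Every ileal sample was below every duodenal sample for 34 members (17.9% of all genes). The widest gaps were those of Isg15 at -2.25 ± 0.37 (SE), Ifi44 at -2.25 ± 0.41, Bst2 at -2.21 ± 0.26, Ifit3 at -2.16 ± 0.44 and Usp18 at -2.02 ± 0.25. The 7 members not called were Irf1, Stat2, Ifih1, Parp14, Mx1, Ifit2 and Gbp7.

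Averaged over the 8 ages, 25 members differed between regions, 8 higher in the ileum (31.9% of all genes) and 17 lower (30.2%). The interaction of region and age was called for 30 members (22.4% of all genes; 17 with all 48 samples), with the smallest p for Bst2 (adjusted p = 8.31e-08), Usp18, Ifit1, Oasl1, Iigp1 and Oasl2. The change from day 0 to week 4 differed between regions for 6 members, more positive in the ileum for Iigp1 (3.14% of all genes) and less so for Bst2, Oas1a, Usp18, Ifit1 and Rtp4 (2.85%). The total of 6 was 3 without ileum sample 1 of day 0, 11 without ileum sample 3 of day 0 or of week 4, 13 without the day 4 samples and 2 with all 48 samples. In a fit that treated samples of equal age and number as pairs, it was 14. The change from week 3 to week 4, a comparison chosen after seeing the data, differed for 13, with 11 smaller in the ileum (0.782% of all genes) and 2 larger, Psmb8 and Iigp1 (0.396%). That total of 13 was 4 with all 48 samples or in a model of the 4 compared groups alone, and in both cases no member was called larger in the ileum.

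**Figure D5:**
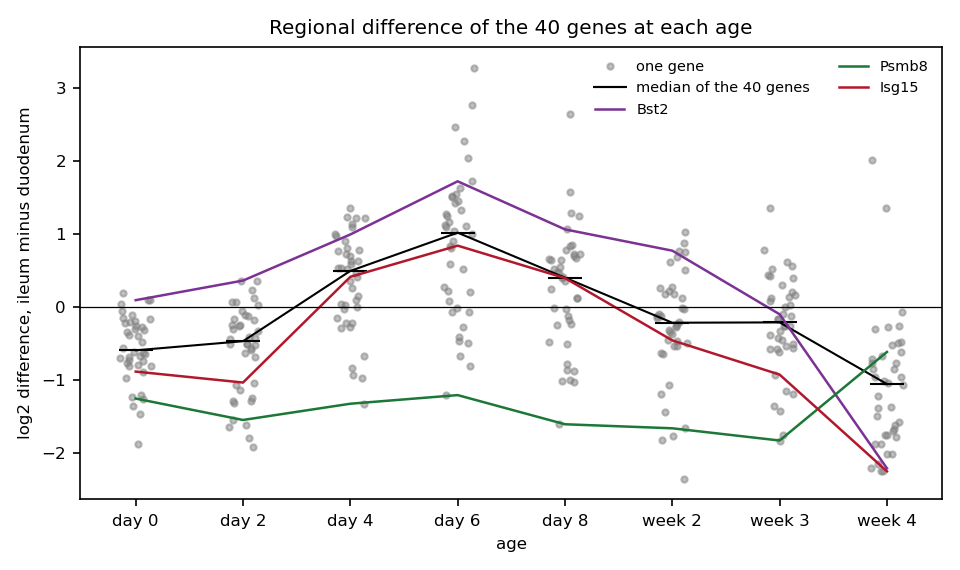
Log2 difference, ileum minus duodenum, of the 40 genes (y axis) at each age (x axis), with 1 grey point per gene, the median as black dashes joined by a line, and Bst2, Psmb8 and Isg15 as coloured lines. The median is above 0 from day 4 to day 8, reaches 1.01 at day 6 and is -1.06 at week 4, while Psmb8 stays below 0 throughout.

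Transcripts of the interferons themselves were at the limit of detection. Of 11 interferon genes, none passed the filter on low counts, and Ifnb1, Ifna1 and Ifna5 had no count in any of the 46 samples. Ifnl2, a type III interferon, had 6 estimated counts in all, in 4 of the 6 week 4 samples and in no earlier one. Ifnl3 had 5 counts, 4 of them at week 4. Ifng had 14 counts in 5 ileum samples and none in the duodenum, and Ifnk had 130 counts spread over 42 samples with at most 9 in one. No difference in these genes can be read at this depth.

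Of 6 receptor genes, 2 were called from week 2 to week 3 in the duodenum and 4 in the ileum, in both directions. Over all genes 7.7% rose and 10.6% fell in the duodenum at that step, and 12.9% and 13.9% in the ileum. From week 2 to week 3, Il10rb fell in both regions and Ifnar1 and Ifnar2 fell in the ileum. From week 3 to week 4 none of 6 receptor genes was called in the duodenum, where 7.75% of all genes rose and 4.96% fell. In the ileum Ifngr1 and Ifnlr1 fell (7.81% of all genes) and none rose (8.26%). Ifnlr1, the specific chain of the type III receptor, had 26.5, 49.3 and 35.9 CPM in the duodenum and 36.8, 27.96 and 21.04 CPM in the ileum at week 4, with overlap and a log2 difference of -0.38 ± 0.20 (SE; adjusted p = 0.138). Ifnar2, a chain of the type I receptor, had 19.9, 23.5 and 28.8 CPM and 14.3, 6.61 and 7.48 CPM without overlap, the log2 difference being -1.35 ± 0.21 (SE; adjusted p = 1.54e-05). Ifngr1, a chain of the receptor for interferon gamma, rose from week 2 to week 3, by 0.61 ± 0.14 (SE) in the duodenum and 1.04 ± 0.14 in the ileum, while most interferon-stimulated genes fell.

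Among the kinase and STAT genes of the pathway, Stat3 rose from week 3 to week 4 in the duodenum and Jak1 in the ileum. Jak2 changed by 0.36 ± 0.22 (SE) and -0.07 ± 0.22, which did not pass the test.

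Of 13 tested genes that sense nucleic acid or induce interferon, 7 rose from week 3 to week 4 in each region (against 7.75% and 8.26% of all genes in duodenum and ileum) and none fell. Tlr3, an endosomal receptor for double-stranded RNA, was higher at week 3 than at week 2 in both regions. It had 6.83, 13.5 and 12.9 CPM at week 2, 21.4, 24.1 and 30.9 CPM at week 3 and then 48.4, 55.6 and 58.4 CPM at week 4 in the duodenum. Ileal samples gave 3.59, 6.02 and 5.36 CPM, 18.3, 21.4 and 21.4 CPM and 40.9, 40.2 and 34.4 CPM. Irf8, a transcription factor of myeloid cells, had log2 changes from week 3 to week 4 of 1.001 ± 0.16 (SE) and 0.98 ± 0.16, both called. Cgas, a sensor of cytosolic DNA, changed by -0.03 ± 0.24 (SE) and -0.09 ± 0.25 from week 3 to week 4, not called in either region.

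Of 6 genes that restrain the pathway, 4 rose from week 3 to week 4 in both regions, Socs1, Socs3, Ptpn6 and Irf2, and none fell. Over all genes 7.75% rose and 4.96% fell in the duodenum at that step, and 8.26% and 7.81% in the ileum. Socs1, a feedback inhibitor of JAK kinases, had 0.233, 0.349 and 0.308 CPM at week 3 and then 3.103, 5.67 and 3.68 CPM at week 4 in the duodenum, and 0.5199, 0.724 and 1.11 CPM and 4.25, 7.97 and 5.14 CPM in the ileum. Its regional difference at week 4, 0.49 ± 0.32 (SE; adjusted p = 0.25), did not pass the test. Ptpn6, which encodes the phosphatase SHP-1, rose by 1.04 ± 0.18 (SE) and 1.47 ± 0.18 from week 3 to week 4. Socs3 was higher in the ileum at week 4, by 0.82 ± 0.24 (SE; adjusted p = 0.0112).

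A further list of 53 interferon-stimulated genes held 52 that were tested, and was drawn up with earlier results of these data known. From week 2 to week 3, 17 fell (10.6% of all genes) and 2 rose (7.7%) in the duodenum, and 21 fell (13.9%) and 2 rose (12.9%) in the ileum. From week 3 to week 4, 42 rose in the duodenum (7.75%) and 43 in the ileum (8.26%), and none fell. At week 4 the ileum was lower for 25 (13.9%) and higher for 6 (14.5%), Gbp4, Gbp5, Gbp8, Gbp9, Ifi203 and Ifi209, of which 4 belong to the Gbp family like Gbp2. Oas1g had 4.46, 3.77 and 3.21 CPM at week 3 and then 79.9, 82.6 and 70.9 CPM at week 4 in the duodenum, a rise of 4.35 ± 0.26 (SE; adjusted p = 9.91e-15). Sp100, a gene of nuclear bodies, had log2 changes at that step of 2.92 ± 0.28 (SE) in the duodenum and 3.04 ± 0.29 in the ileum, and Parp12, which encodes an ADP-ribosyltransferase, 1.90 ± 0.18 and 0.99 ± 0.18.

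Of all other genes, the 10 whose log2 CPM correlated best with the mean of the 40 over the 46 samples were Rnf213 (r = 0.92), Slfn2 (r = 0.90), H2-Q4 (r = 0.90), Trim12a, Gm5431, Olfr56, Gm12250, Trafd1, H2-Q6 and Il2rb (r = 0.80). The samples share ages and libraries, so r is given as a description. All 10 rose from week 3 to week 4 in both regions. They were chosen by correlation with a mean that itself fell and rose at these ages. Their changes there follow largely from that choice. Rnf213 had log2 changes of -1.85 ± 0.22 (SE) and -2.12 ± 0.22 to week 3 and of 3.59 ± 0.24 and 2.28 ± 0.22 to week 4 in duodenum and ileum, all called.

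Most markers of lymphocytes and some of plasmacytoid dendritic cells rose over the same step as the members. The summed level of 6 T cell markers was 3.92 to 9.42 CPM at week 3 and then 56.9 to 88.02 CPM at week 4 in the duodenum, and 2.12 to 5.88 CPM and 49.3 to 65.9 CPM in the ileum, with 6 of 6 called higher in each. The sum of 5 natural killer cell markers, 4 of them tested, was 2.35 to 6.35 CPM and 48.8 to 67.9 CPM in the duodenum and 0.965 to 1.21 CPM and 28.3 to 39.7 CPM in the ileum, with 3 called higher. At week 4 most of that sum was Gzmb. The sum of 5 B cell and plasma cell markers was 3.62 to 4.12 CPM and 25.1 to 30.8 CPM in the duodenum and 3.399 to 10.996 CPM and 65.2 to 251 CPM in the ileum, with 5 of 5 called higher. The sum of 4 markers of plasmacytoid dendritic cells, which are known for making type I interferon, was 50.9 to 55.2 CPM and 75.6 to 84.3 CPM in the duodenum and 54.1 to 76.2 CPM and 92.5 to 143 CPM in the ileum, with 2 of 4 called higher in the duodenum and 3 of 4 in the ileum. Tcf4 and Klk1 made up most of this last sum, with 1463 and 1436 estimated counts in duodenum sample 1 of week 4. Ccr9 had 255 counts and Siglech 78 in that sample, so the sum mainly follows the first 2 genes. Which cells of the tissue expressed these 4 genes was not tested. Over all genes 7.75% rose in the duodenum and 8.26% in the ileum from week 3 to week 4. No marker of these lists was at 0 in all samples of a week 4 group. Their part in the rise of the interferon-stimulated genes was not tested.

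No marker of macrophages or endothelium was called higher at that step. None of 5 macrophage markers rose from week 3 to week 4 and Csf1r fell in both regions, with sums of 32.6 to 35.9 CPM and 10.9 to 19.8 CPM in the duodenum. Of 4 endothelial markers 3 fell in both regions. Of 5 epithelial markers 4 rose in the duodenum (7.75% of all genes) and none was called in the ileum, with sums of 7435 to 10785 CPM and 6763 to 10818 CPM at week 4.

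At week 4 most members were lower in the ileum. The sum of natural killer cell markers was also lower there without overlap, at the values given above. Gzmb made up most of that sum, with 2356, 1612 and 1528 estimated counts in the duodenum against 215, 116 and 81 for Nkg7. Ncr1 had 0, 2 and 1 counts in the duodenum and 2, 2 and 5 in the ileum. Of the 4 tested genes of the list 1, Klrk1, was called and was higher in the ileum. T cell markers differed for 1 of 6, Cd2, which was higher in the ileum. B cell and plasma cell markers were higher in the ileum for 5 of 5, smooth muscle markers for 3 of 4 and endothelial markers for 2 of 4 (14.5% of all genes). From week 2 to week 3, when most members fell, the duodenal macrophage sum was 95.4 to 141 CPM at week 2 and 32.6 to 35.9 CPM at week 3. The ileal sum was 121 to 152 CPM and 22.1 to 25.4 CPM, so neither region had overlapping values. Csf1r, the receptor gene that marks macrophages, had log2 changes of -2.42 ± 0.23 (SE) in the duodenum and -3.08 ± 0.23 in the ileum, both called. Cd68 fell in the ileum, and the other macrophage markers were not called. Csf1r made up most of the sum, with 3404, 2162 and 3878 estimated counts in the duodenum at week 2. C1qa, the next highest there, had 221, 193 and 262 counts, and 265, 168 and 291 at week 3. The fall of the macrophage sum was thus mainly that of Csf1r. At that step no T cell or endothelial marker was called in either region, and 3 of 5 epithelial markers rose in both. The part of these markers in the course of the members was not tested.

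All 3 week 4 samples of each region had Xist and little or no Ddx3y, the pattern of females, whereas 1 of 3 at week 3 and 2 of 3 at week 2 did in each region. All samples used at day 6 and day 8 had that pattern too. At day 0, 2 of 3 duodenal samples were classed as having both genes and 1 as having Ddx3y alone. In the ileum 2 of 3 had the female pattern at day 0. Duodenal day 8 and week 4 were thus compared with a day 0 group of unlike pattern in these 2 genes. With an index of sex from these 2 genes in the model, an alternative chosen after seeing the data, 39 members rose from week 3 to week 4 in the duodenum and 37 in the ileum.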

How the data were processed

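RNA of 48 pieces of mouse duodenum and ileum was sequenced. Per the submitters' processing notes, the tools named were STAR 2.6.1d, Salmon 0.14.2 and DESeq2 1.30.1, with genome build mm10. The deposited table holds the authors' estimated counts per gene for each sample, which were rounded to whole numbers here. Library totals ran from 16824021 to 65042327, and samples were grouped by region and age from the labels.

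Counts were scaled by TMM and fitted in edgeR 4.0.16 (R 4.3.3) by the quasi-likelihood test with 1 mean per group, 16 groups and 46 samples, after the default expression filter. P-values were adjusted by Benjamini and Hochberg over 21986 genes, and a gene was called under 0.05. CPM are counts per 1000000 of the scaled library, and log2 CPM had a prior count of 2. The standard error was the log2 change divided by the square root of F. Scripts were tested on simulated data.

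The 40 members and all gene lists were chosen with earlier results of these data known. Values in every sample are given for the 2 members of each role with the smallest p for age, and for 6 by the interaction. Ifit2, Cmpk2, Stat2, Gbp2, Gbp7 and the week 4 gaps of Ifi44 and Ifit3 were singled out after their values were seen. In each pathway list the 3 genes with the smallest p for age could be given with values.

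Alternatives were size factors by RLE, other count filters, DESeq2 1.42.0, fewer or more samples, a replicate block, a sex index and leaving out each sample in turn. Promoters and starts are from RefSeq (GRCm38.p6), and exon lengths from the GRCm38 annotation. A gene of the pathway lists is not reported here.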

Additional observations from a re-analysis of the deposited data

Results flagged for a closer look

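For 13 interferon-stimulated genes the change from week 3 to week 4 differed between ileum and duodenum, tested by edgeR as the difference of the log2 changes (ileum minus duodenum, Benjamini-Hochberg adjusted, n = 3 in each of 4 groups). The comparison was chosen after seeing the data. Cmpk2, a nucleotide kinase gene, had the widest negative difference with Oas2: Cmpk2 -2.43 ± 0.33 (SE; adjusted p = 1.32e-04) and Oas2 -2.43 ± 0.61 (adjusted p = 0.0356). Among the other genes of the Oas family, which activate RNase L or resemble its activators, Oas3 differed by -2.21, Oasl1 by -2.15, Oas1a by -2.15 and Oasl2 by -1.55. Bst2 (tetherin) differed by -2.11, Rsad2 (viperin) by -2.004, Usp18 (the protease that removes ISG15) by -1.75, Ifi27 by -1.27 and the sensor gene Ddx58 by -0.97. In the opposite direction, the GTPase gene Iigp1 differed by 2.40 and the immunoproteasome gene Psmb8 by 1.21. With all 48 samples, or in a model of the 4 compared groups alone, 4 members were called and neither Iigp1 nor Psmb8 was among them.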

How the results depend on the processing

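For named members, 160 changes called in the main fit were followed, which gave 2400 values over the alternative fits. None of these values reversed direction, and 67 of them lost the call. Changes not called in the main fit were not followed. The counts of members called at the steps from week 2 to week 3 and from week 3 to week 4 stayed within 1.5 times under each alternative run: the replicate block gave 28 and 31 for the first step and 39 and 35 for the second in duodenum and ileum. DESeq2 and the sex index moved no count by over 1.5 times.

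With all 48 samples, members called were 4 for week 2 against day 0 in the ileum, 17 for the interaction, 2 for the regional difference in change from day 0, 17 (duodenum) and 0 (ileum) for week 2 against day 8, 5, 0 and 8 for the ileum against the duodenum at day 4, day 6 and week 2, and 4 for the regional difference in change from week 3. At day 6 that fit called 0 of 20901 genes, and it includes the 2 samples whose regional markers went against their labels. Without the day 4 samples, the regional difference in change from day 0 gave 13, day 8 against day 0 in the ileum 13, week 2 against day 8 in the ileum 7, and the regions at week 3 15. In models of the compared groups alone, day 8 against day 0 in the ileum gave 11, week 2 against day 8 in the ileum 11, the regions at day 2, day 4 and day 8 gave 18, 0 and 29, and the regional difference in change from week 3 gave 4. Week 2 against day 8 in the ileum gave 1 with RLE size factors and 1 with no filter, and the regions at week 3 gave 11 with a mean count of at least 10. The cause was not tested. No value was had for the average over ages and the interaction in models of the compared groups alone, or for day 4 without its samples.

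Leaving out each sample in turn gave members called as follows. The counts were 40 throughout for age effect in the duodenum, 40 throughout for age effect in the ileum, 30 to 33 for week 4 against day 0 in the duodenum, 24 to 27 for week 4 against day 0 in the ileum, 13 to 17 for week 2 against day 0 in the duodenum, 4 to 8 for week 2 against day 0 in the ileum, 27 throughout for week 3 against week 2 in the duodenum. The counts were 29 to 31 for week 3 against week 2 in the ileum, 38 to 39 for week 4 against week 3 in the duodenum, 34 to 36 for week 4 against week 3 in the ileum, 24 to 27 for ileum against duodenum averaged, 31 to 32 for the regions at week 4, 28 to 33 for interaction of region and age, 3 to 11 for the regional difference in change from day 0. The counts were 27 to 31 for day 8 against day 0 in the duodenum, 3 to 11 for day 8 against day 0 in the ileum, 6 to 29 for week 2 against day 8 in the duodenum, 0 to 2 for week 2 against day 8 in the ileum, 4 to 11 for the regions at day 0, 5 to 9 for the regions at day 2, 7 to 20 for the regions at day 4. The counts were 15 to 23 for the regions at day 6, 13 to 17 for the regions at day 8, 8 to 12 for the regions at week 2, 5 to 10 for the regions at week 3, 9 to 15 for the regional difference in change from week 3.

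Whether the numbers pair duodenum and ileum samples was checked: over 23 pairs the correlation of deviations from group means ran from -0.36 to 0.67 and was over 0.1 in 16, with a mean of 0.155 against -0.079 for different numbers, and 17 duodenum samples correlated best with their own number. This is a hint from the data and not from the design. The counts of samples with Xist alone and with Ddx3y alone were also equal in both regions at each age after day 0. At day 0 the counts with Xist alone differed. Equal counts do not show which samples share an animal. The labels give no pairing and not every pair was over 0.1, so the main fit did not treat the numbers as pairs. Whether they are pairs was not settled, and the main regional tests take no account of a pairing. The replicate block gave 14 for the regional difference in change from day 0 and 12 for the regions at week 3, and moved no other count by over 1.5 times.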
